A study of Mus musculus with 24 samples.

Results

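Mouse cells carrying the C1 mutant of NIPBL were compared with cells carrying wild-type NIPBL, by total RNA sequencing. The libraries were chosen by their titles: 4 of C1 cells and 4 of wild-type NIPBL cells, out of 24 in the series. NIPBL, with its partner MAU2, puts the ring-shaped cohesin complex onto DNA, where cohesin then extrudes loops. Loops made by cohesin bring enhancers to promoters, and the clustered protocadherins, whose promoters are picked by such loops, are a known case of genes that need it. The glucocorticoid receptor, which dexamethasone activates, works largely from enhancers.

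The cells are 3134 mouse mammary adenocarcinoma cells, all with a short hairpin RNA against NIPBL under IPTG control and a piggyBac construct. C1 cells received 1 mM IPTG for 3 days and carried NIPBL with the mutation called C1, and wild-type NIPBL cells received the same and carried unmutated NIPBL. Each was then treated for 2 hours with 100 nM dexamethasone or with the solvent ethanol, in 2 libraries per group that the series' design text calls biological replicates. The other lines carried the C2 mutant, the C1-C2 double mutant or an empty vector with IPTG, and the empty vector without IPTG. The labels do not say which residues C1 changes, and each construct is represented by 1 line, so a difference between constructs cannot be told apart from a difference between lines. All comparisons of C1 with wild-type NIPBL take place in cells whose own Nipbl is lowered.

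The 4 C1 libraries held 36758782 to 72857880 counts and the 4 wild-type NIPBL libraries 37604576 to 57690039. Levels are CPM (counts scaled to the library size), and folds come from edgeR with both treatments averaged unless one is named. Counts assigned to Nipbl lay at 53.3 to 73.3 CPM in C1 cells and 55.1 to 70.4 CPM in wild-type NIPBL cells, against 151 to 186 CPM in the 4 libraries without IPTG. Nipbl did not pass the test between C1 and wild-type NIPBL cells (log2 difference -0.097, edgeR adjusted p = 0.417; -0.19 and 0.03 without replicate 1 of C1 in ethanol), and the sources used here do not say if construct transcripts were counted under this gene. Of the epithelial markers, Epcam had no count in these 8 libraries and Cdh1 reached 0.0518 CPM, Krt18 0.028 CPM and Krt19 0.115 CPM, while Krt8 lay at 0.343 to 0.768 CPM and Krt14 at 16.5 to 21.8 CPM. Of the mesenchymal markers, the filament gene Vim lay at 3328 to 4458 CPM, Fn1 at 1087 to 2309 CPM and Col1a2 at 1570 to 1738 CPM. Sparc lay at 738 to 987 CPM, while Col1a1 lay at 0.633 to 1.45 CPM. Of the blood cell markers, Adgre1 and Cd3e had no count and Ptprc, Itgam and Csf1r reached no more than 0.104 CPM, while Cd14 lay at 13.6 to 17.8 CPM, Cd68 at 8.1 to 11.4 CPM and Lyz2 at 1.43 to 3.34 CPM. Of the vessel markers, Kdr, Tek and Emcn had no count and Pecam1, the highest, reached 0.158 CPM.

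In dexamethasone, the first wild-type NIPBL library (replicate 1) lay apart from replicate 2, with -14.3 against -4.22 on the third principal component. It also held the most counts on gene models of the annotation class TEC, which await experimental evidence, 0.251% against 0.161% in replicate 2 and 0.144% and 0.143% in the C1 libraries in dexamethasone. Results that rest on this library are given with and without it.

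C1 cells differed from wild-type NIPBL cells at many genes and mostly by little. Of 16934 genes tested, 1635 (9.66%) passed at an adjusted p under 0.05, 888 higher (5.24%) and 747 lower (4.41%) in C1. The called genes had a median absolute log2 fold change of 0.24, and 1341 of them (82%) differed by under 1.5-fold. At least 2-fold differences numbered 46 higher and 80 lower. Without replicate 1 of wild-type NIPBL in dexamethasone 1220 genes were called, without replicate 2 of C1 in ethanol 787, without replicate 2 of C1 in dexamethasone 946 and 988 with wild-type NIPBL replicate 2 in ethanol left out. Both C1 libraries lay beyond both wild-type NIPBL libraries in each treatment for 1445 of the 1635 called genes, as they did for 19% of all tested genes.

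Called differences were larger at low expression levels, where mostly large folds can pass the test. Among the 4235 genes of lowest mean level, under 0.859 CPM, 3.07% were called and 95 of these 130 differed at least 2-fold. Among the 4233 of highest level, above 53.8 CPM, 15.8% were called, 467 higher and 202 lower, and 0 reached 2-fold. By chromosome the share called ran from 7.22% on chromosome 17 to 12.7% on chromosome 18, which holds the clustered protocadherins.

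Among genes with a mean of at least 1 CPM and separated replicates, the largest fall was at Slc4a5, which encodes a sodium bicarbonate cotransporter (mm10, chromosome 6, 83219828 to 83304945, plus strand). It lay at 0.105 and 0.104 CPM in C1 cells in ethanol and at 0.21 and 0.111 CPM in dexamethasone, against 3.12 and 3.42 CPM in ethanol and 3.62 and 4.32 CPM in dexamethasone in wild-type NIPBL cells. The groups were far apart, and the 16 libraries of the remaining lines lay at 0.0158 to 0.311 CPM, so wild-type NIPBL cells alone had more than 1 CPM. The difference was -4.74 ± 0.248 on the log2 scale (SE, edgeR adjusted p = 7.41e-12). The same gene did not pass the test between C1 and empty-vector cells with IPTG (log2 difference -0.13, edgeR adjusted p = 0.93).

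The promoters of 4 genes described here are shown from RefSeq (GRCm38.p6, 250 bases before to 50 after the start, read 5′ to 3′ on the gene's strand): Slc4a5, the fall just described, Fcho1, a gene higher in C1 than in every other line, and Ddit4 and Nrip1, genes that the hormone induces. Capitals mark matches on either strand to AGAACA, the core of a glucocorticoid response element, TGANTCA, the AP-1 motif, or TATAAA, the TATA box.
Slc4a5 (chr6:83237125-83237424, plus strand): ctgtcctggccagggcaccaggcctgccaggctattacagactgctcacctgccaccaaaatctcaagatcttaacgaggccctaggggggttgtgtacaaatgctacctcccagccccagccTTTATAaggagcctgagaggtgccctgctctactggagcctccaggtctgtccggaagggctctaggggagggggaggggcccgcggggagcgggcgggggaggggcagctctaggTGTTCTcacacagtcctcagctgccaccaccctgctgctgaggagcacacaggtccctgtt
Fcho1 (chr8:71725632-71725931, minus strand): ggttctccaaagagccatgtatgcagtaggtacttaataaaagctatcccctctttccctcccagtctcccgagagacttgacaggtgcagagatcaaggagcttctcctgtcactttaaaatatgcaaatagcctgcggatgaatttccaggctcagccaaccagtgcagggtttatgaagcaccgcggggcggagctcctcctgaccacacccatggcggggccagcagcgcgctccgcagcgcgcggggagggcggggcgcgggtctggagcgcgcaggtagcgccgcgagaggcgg
Ddit4 (chr10:59951721-59952020, minus strand): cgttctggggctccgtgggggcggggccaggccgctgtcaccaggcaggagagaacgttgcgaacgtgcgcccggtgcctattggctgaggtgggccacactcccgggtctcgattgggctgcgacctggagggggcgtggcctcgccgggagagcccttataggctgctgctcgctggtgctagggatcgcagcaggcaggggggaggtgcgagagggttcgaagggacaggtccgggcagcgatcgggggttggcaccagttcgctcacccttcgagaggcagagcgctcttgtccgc
Nrip1 (chr16:76373778-76374077, minus strand): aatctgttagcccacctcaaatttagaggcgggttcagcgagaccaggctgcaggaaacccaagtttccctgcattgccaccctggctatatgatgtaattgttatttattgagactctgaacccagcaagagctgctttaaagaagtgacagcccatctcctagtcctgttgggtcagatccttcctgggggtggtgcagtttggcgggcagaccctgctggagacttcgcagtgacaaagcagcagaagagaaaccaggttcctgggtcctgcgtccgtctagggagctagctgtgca
Slc4a5 held 1 match to TATAAA and 1 to AGAACA, both on the strand opposite to the gene, and the other promoters shown held none of the 3 motifs in this window. The Slc4a5 window lies inside the gene span given above, so it is not at the 5′ end of the counted gene model. Over 32851 promoters of the table, 19% held AGAACA, 7.81% TGANTCA and 13.6% TATAAA. The promoters also differ in CG dinucleotides, with 26 in Ddit4, 21 in Fcho1, 6 in Slc4a5 and 6 in Nrip1, beside a median of 7 over all of them.

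Among the other genes lower in C1 with a mean of at least 1 CPM were Scara5, a receptor for ferritin, and Csn3, the milk protein kappa-casein. Scara5 lay at 1.29 and 0.88 CPM in C1 cells in ethanol and 2.15 and 1.37 CPM in dexamethasone, against 5.7 and 5.01 CPM and 8.56 and 9.34 CPM in wild-type NIPBL cells (log2 difference -2.31 ± 0.259, SE, edgeR adjusted p = 7.29e-05). Csn3 lay at 0.422 and 0.673 CPM and 0.741 and 0.556 CPM in C1 cells, against 2.65 and 2.57 CPM and 2.37 and 3.28 CPM in wild-type NIPBL cells, in the same order of treatments (log2 difference -2.17 ± 0.161, SE, edgeR adjusted p = 4.11e-09). The C1 and wild-type NIPBL libraries did not overlap for either gene. The long noncoding RNA Lncenc1 averaged 2.12 ± 0.341 and 2.76 ± 0.501 CPM in C1 cells and 7.66 ± 0.529 and 8.75 ± 0.512 CPM in wild-type NIPBL cells (ethanol and dexamethasone, SD, n = 2 each, edgeR adjusted p = 1.55e-10).

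These genes differed in where the remaining lines stood. Scara5 averaged 4.87 and 8.09 CPM in empty-vector cells with IPTG and 17.6 and 31.4 CPM in those without IPTG (ethanol and dexamethasone), a log2 difference of -1.91 (edgeR adjusted p = 8.08e-06). It lay at 0.456 to 2.17 CPM in C2 cells, as low as in C1, and at 2.62 to 6.37 CPM in C1-C2 cells. Csn3 rose after knockdown in empty-vector cells by 1.26 (edgeR adjusted p = 5.75e-07), and was lower in C1 than in each other line that received IPTG. Lncenc1 was lower in C1 than in C2 cells, which averaged 6.86 and 6.67 CPM, by -1.49 (edgeR adjusted p = 5.17e-09), whereas the difference of C1 from C1-C2 cells was -0.19 and did not pass (edgeR adjusted p = 0.892). Empty-vector cells held 2.52 to 2.82 CPM of Lncenc1 with IPTG and 1.94 to 2.74 CPM without, beside 1.87 to 3.11 CPM in C1 cells. Wild-type NIPBL and C2 cells thus stood above the remaining lines.

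Ldhb, the B subunit of lactate dehydrogenase, was 2.14-fold lower, at 5.51 to 6.75 CPM in C1 cells against 11.7 to 14.4 CPM in wild-type NIPBL cells (edgeR adjusted p = 4.08e-09). Dtna, the dystrophin partner alpha-dystrobrevin, was 2.59-fold lower, with 1.74 to 2.72 CPM in C1 cells against 5.12 to 5.93 CPM in wild-type NIPBL cells. The 16 libraries of the remaining lines lay at 0.87 to 2.54 CPM for Dtna, so wild-type NIPBL cells alone stood high. Rapgef3, which encodes the cAMP sensor EPAC1, had 12.1 ± 1.05 and 17.5 ± 0.144 CPM in C1 cells and 20.8 ± 2.25 and 40.3 ± 0.533 CPM in wild-type NIPBL cells (ethanol and dexamethasone, SD, n = 2 each). For Rapgef3 the log2 difference of C1 from empty-vector cells with IPTG was 0.036 and did not pass (edgeR adjusted p = 0.904). Selenbp1 (2.56-fold), the retinaldehyde reductase gene Dhrs3 (2.09-fold), Nckap5 (2.14-fold) and the matrix-associated Ccn5 (1.97-fold) completed the genes of largest fall outside the protocadherins. Of these, the call for Selenbp1 was lost in 2 of the 8 fits that leave out a library, most clearly when wild-type NIPBL replicate 2 in ethanol was left out (edgeR adjusted p = 0.0894), and the call for Nckap5 without replicate 2 of C1 in ethanol (edgeR adjusted p = 0.0513).

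Among the genes higher in C1 were surface receptors. Selp, the adhesion receptor P-selectin, lay at 16.2 and 23.9 CPM in C1 cells in ethanol and 12.2 and 20 CPM in dexamethasone, against 6.5 and 4.93 CPM and 4.55 and 3.3 CPM in wild-type NIPBL cells (log2 difference 1.92 ± 0.299, SE, edgeR adjusted p = 0.00143). Havcr2, the immune checkpoint receptor TIM-3, lay at 9.26 and 11.4 CPM and 13.3 and 16.6 CPM in C1 cells, against 3.6 and 3.42 CPM and 5.62 and 4.43 CPM in wild-type NIPBL cells (log2 difference 1.56 ± 0.151, SE, edgeR adjusted p = 3.39e-06). Each C1 library exceeded each wild-type NIPBL library for both genes, although the C1 replicates of Selp differed by more than the wild-type ones. The 16 libraries of the remaining lines reached 14.6 CPM for Selp and 13.1 CPM for Havcr2. Mertk, a receptor kinase for the uptake of dying cells, had 0.222 and 2.36 CPM in C1 cells and 0.0505 and 1.59 CPM in wild-type NIPBL cells in ethanol and dexamethasone, and passed when both treatments were averaged (edgeR adjusted p = 0.00703) and in neither alone. Its call was lost without replicate 2 of C1 in ethanol (edgeR adjusted p = 0.0951).

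Fcho1, which starts clathrin-coated pits, lay at 2.24 and 1.97 CPM in ethanol and 1.96 and 2.37 CPM in dexamethasone in C1 cells, against 0.595 and 0.436 CPM and 0.467 and 0.921 CPM in wild-type NIPBL cells (log2 difference 1.83 ± 0.21, SE, edgeR adjusted p = 2.98e-06). Rex2, a zinc finger gene, had 3.52 to 3.97 CPM in C1 cells against 1.02 to 2.05 CPM in wild-type NIPBL cells (edgeR adjusted p = 2.77e-05). For both genes the 4 C1 libraries were above all 20 other libraries of the series. Cox7b2, which encodes a cytochrome c oxidase subunit, was 2.72-fold higher in C1 than in wild-type NIPBL cells, and was higher still in C1-C2 cells (log2 difference of C1 from C1-C2 -0.79, edgeR adjusted p = 0.0275). Il33, an alarmin cytokine gene, was 1.96-fold higher in C1 than in wild-type NIPBL cells, with 21.7 ± 2.19 and 16.9 ± 1.52 CPM in C1 cells and 11.4 ± 1.41 and 8.39 ± 0.911 CPM in wild-type NIPBL cells (ethanol and dexamethasone, SD, n = 2 each). For Il33 the 16 libraries of the remaining lines lay at 9.25 to 23.2 CPM, which overlaps the C1 range of 15.9 to 23.2 CPM.

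**Figure D1:**
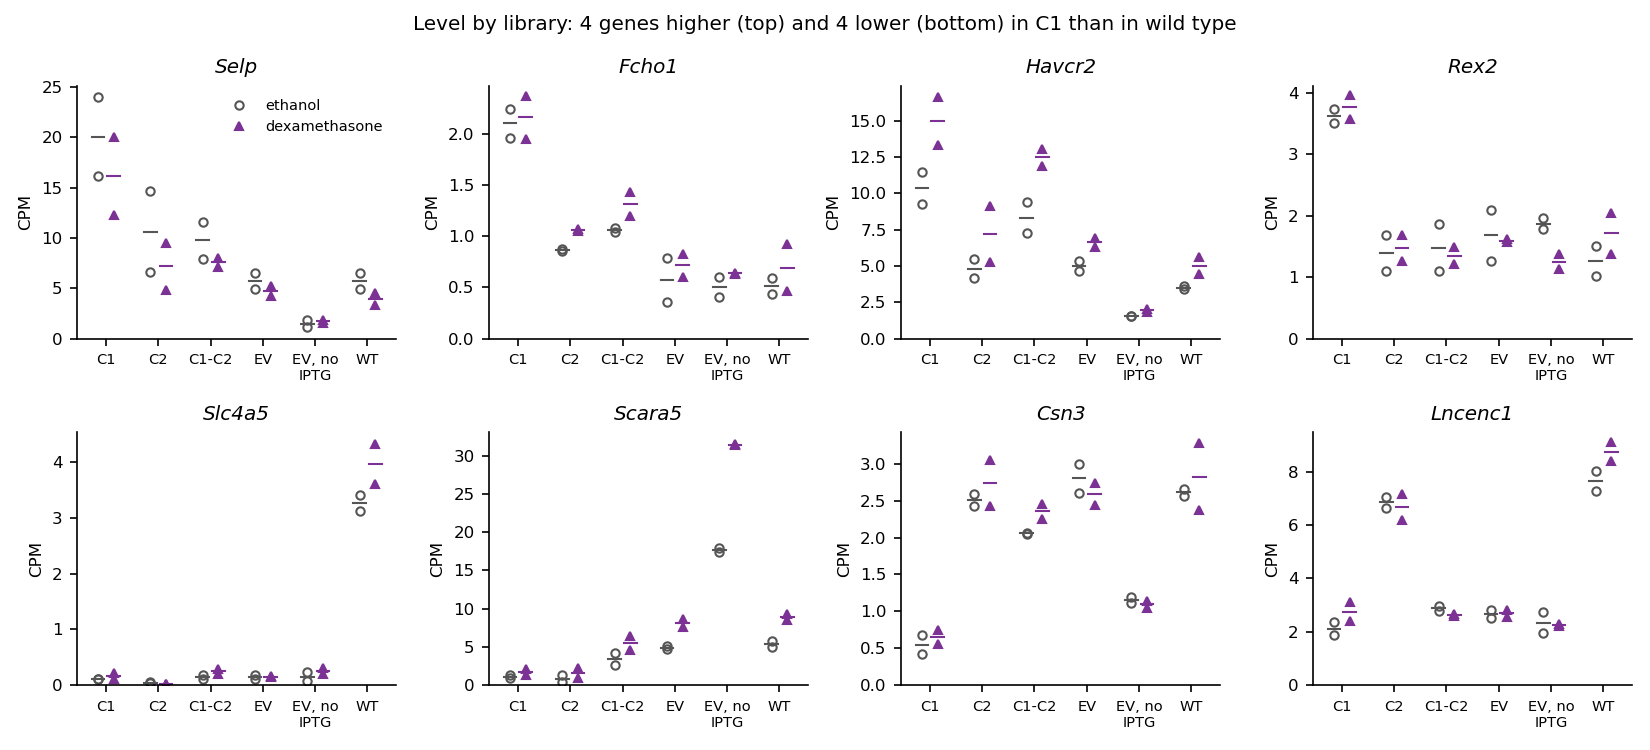
Level in CPM of 4 genes higher and 4 genes lower in C1 than in wild-type NIPBL cells, in each of the 24 libraries, with open circles for ethanol, filled triangles for dexamethasone and a bar for the mean of 2 libraries. Slc4a5 is above 3 CPM in wild-type NIPBL cells and at or under 0.311 CPM elsewhere, while Fcho1 and Rex2 are highest in C1 cells.

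The remaining genes of largest rise were the calcium-binding S100a7a (4.18-fold), the cadherin gene Cdh17 (3.86-fold), Ceacam3 (3.11-fold), Dynap (2.34-fold), the vesicular glutamate transporter gene Slc17a7 (2.2-fold) and the phosphoinositide phosphatase gene Inpp4b (2.03-fold). For each of these the C1 range overlapped that of the 16 libraries of the remaining lines, which reached 3.51 CPM for Ceacam3, 1.67 CPM for Slc17a7 and 5.74 CPM for Inpp4b. The C1 libraries reached 3.37, 1.59 and 5.67 CPM for these 3 genes. The placental proliferin genes Prl2c3 (4.46-fold) and Prl2c2 (3.85-fold) are near-identical copies whose reads the counting could split, so their single values are uncertain. Prl2c3 ranged from 33.6 to 73.7 CPM in the C1 libraries against 9.6 to 14.7 CPM in the wild-type NIPBL libraries, and from 1.49 to 112 CPM in the remaining lines. The call for Prl2c2 (edgeR adjusted p = 0.0485) was lost when any of 6 of the 8 libraries was left out, and that for Prl2c3 without replicate 2 of C1 in ethanol (edgeR adjusted p = 0.0611).

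Some genes had counts in 1 of the 2 lines and almost none in the other. Vmn1r33, a vomeronasal receptor gene on chromosome 6, had 18, 22, 76 and 53 counts in the C1 libraries and 0 in each wild-type NIPBL library, at least 52.8-fold higher with 3 counts per line as the floor. The remaining lines had 0 or 1 count in all, and Vmn1r32, another vomeronasal receptor gene on chromosome 6, had 60 counts over the C1 libraries and 1 over the wild-type NIPBL libraries. Fa2h, the fatty acid 2-hydroxylase gene, had 0 counts in the 4 C1 libraries against 22, 20, 50 and 60 in the wild-type NIPBL libraries, at least 54.1-fold lower with the same floor, and at most 1 count in each remaining line. Slc27a6, a fatty acid transporter gene, had 0 against 82 counts, at least 29.2-fold lower, and 0 in each remaining line. In all, 2 called genes had at most 3 counts in wild-type NIPBL cells and 6 had at most 3 in C1 cells. These genes were singled out after their values were seen.

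The 2 treatments are separate libraries, and the differences between C1 and wild-type NIPBL cells recurred in both. In ethanol 338 genes (2%) passed, 166 higher (0.98%) and 172 lower (1.02%). In dexamethasone 902 (5.33%) passed, 445 higher (2.63%) and 457 lower (2.7%). The lists shared 230 genes, all in the same direction, which is 68% of the ethanol list and 25.5% of the dexamethasone list. Of the 338 genes called in ethanol, 335 had the same sign in dexamethasone, and of the 902 called in dexamethasone 835 had the same sign in ethanol. The dexamethasone count was 214 without replicate 2 of C1, 300 without replicate 1 of C1, 292 without replicate 1 of wild-type NIPBL and 1319 without its replicate 2. The ethanol count was 199 and 78 without replicates 1 and 2 of C1, and 176 and 77 without replicates 1 and 2 of wild-type NIPBL.

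**Figure D2:**
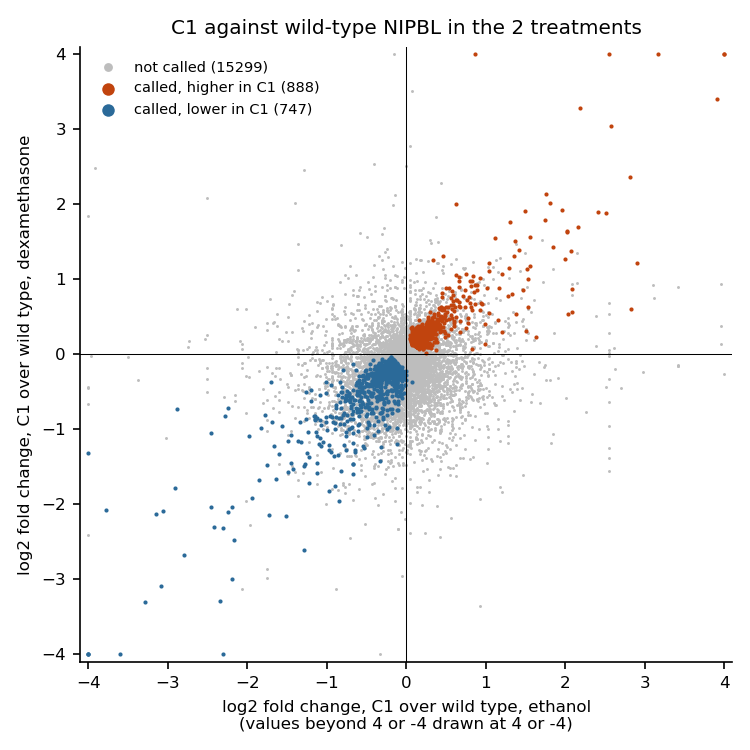
Log2 fold change of C1 over wild-type NIPBL cells in ethanol (x) and in dexamethasone (y), with a point per tested gene, drawn at the edge beyond 4 or -4 and coloured by its call with both treatments averaged. The 888 genes called higher and 747 called lower in C1 lie mostly at the upper right and the lower left. The call rests on the average of x and y, so these positions largely follow from it. They do not test whether the differences recur across treatments.

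The question whether C1 alters the response to dexamethasone was addressed by the difference of the 2 differences. With edgeR 2 genes (0.0118%) passed, both lower, while 734 had an unadjusted p under 0.05 and DESeq2 called 5. Socs2, a feedback inhibitor of cytokine signalling, lay at 12.8 and 14 CPM in C1 cells in ethanol and 35.5 and 36.9 CPM in dexamethasone, against 11.4 and 11.1 CPM and 49.2 and 58.4 CPM in wild-type NIPBL cells. C1 was thus below wild-type NIPBL in dexamethasone (log2 difference -0.57, edgeR adjusted p = 0.000261) and not in ethanol (0.25, edgeR adjusted p = 0.315), with a difference of -0.82 between these (edgeR adjusted p = 0.0275). Nrip1, a corepressor of nuclear receptors, lay at 47.3 and 49.5 CPM in ethanol and 56.9 and 53.6 CPM in dexamethasone in C1 cells, against 46.7 and 45.4 CPM and 70.8 and 71.6 CPM in wild-type NIPBL cells. Its difference of -0.44 had an edgeR adjusted p of 0.0275. With each of the 8 libraries left out in turn, the call for Socs2 was lost in 7 fits and kept without replicate 1 of wild-type NIPBL in dexamethasone (edgeR adjusted p = 0.00215). The call for Nrip1 was lost in all 8 fits, with edgeR adjusted p values of 0.0603 to 0.856.

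Among 26 measured glucocorticoid-induced genes, 9 (34.6%) were lower in C1 with both treatments averaged, 3 (11.5%) were higher and 14 did not pass, beside 4.41% lower and 5.24% higher over all tested genes, with a median log2 difference of -0.18 against -0.0068 over all tested genes. In dexamethasone alone the median was -0.28, with 7 lower and 1 higher (2.7% and 2.63% over all tested genes), and in ethanol -0.078, with 1 lower and 1 higher. Ddit4, an mTOR inhibitor, had 223 ± 19.4 CPM in C1 cells and 350 ± 16.7 CPM in wild-type NIPBL cells in dexamethasone, and 74.9 ± 0.0468 and 103 ± 11 CPM in ethanol (SD, n = 2 each, log2 difference -0.56, edgeR adjusted p = 0.00136). Tsc22d3, which encodes the anti-inflammatory GILZ, had 156 and 148 CPM in C1 cells against 192 and 218 CPM in wild-type NIPBL cells in dexamethasone, and 9.95 and 11.5 CPM against 13.3 and 12.5 CPM in ethanol (log2 difference -0.35, edgeR adjusted p = 0.00112). Their libraries did not overlap in either treatment.

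Others of the list fell with them. Bcl6, a transcriptional repressor, differed by -0.50 (edgeR adjusted p = 0.000486), and Fkbp5, the chaperone of steroid receptors, by -0.53 in dexamethasone (380 against 549 CPM, edgeR adjusted p = 0.000254) and by -0.052 in ethanol (75.5 against 78.3 CPM, edgeR adjusted p = 0.875). The difference of these 2 values for Fkbp5 did not pass (edgeR adjusted p = 0.6). Ampd3, AMP deaminase, was among the 3 that rose (log2 difference 0.20, edgeR adjusted p = 0.000723), with Sgk1 and Suox. In the list of 12 measured inflammatory genes that glucocorticoids repress, 2 fell and 0 rose, Cxcl1 (log2 difference -0.48) and Lif (-0.25). Without replicate 1 of wild-type NIPBL in dexamethasone, 8 of the induced genes were lower and 2 higher, with a median of -0.23, and without replicate 2 of C1 in ethanol 5 were lower and 1 higher.

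Many clustered protocadherins, adhesion molecules best known from neurons, were lower in C1, in the β and γ clusters. Of 57 in the table, 34 were measured after the low-count filter, of which 18 (52.9%) fell, 0 rose and 16 did not pass, with a median log2 difference of -1.05, beside 4.41% lower over all tested genes. By cluster, 8 of 11 measured β members and 10 of 17 γ members fell, while 0 of 6 α members were called and 5 of these had a difference above 0, up to 1.04 at Pcdha6 (edgeR adjusted p = 0.163). Pcdhgc3, the most abundant member, differed by -0.017 and did not pass (edgeR adjusted p = 0.85), and all 57 genes summed to 182 to 199.5 CPM in C1 cells and 199.6 to 231 CPM in wild-type NIPBL cells. A member could pass the filter through wild-type NIPBL or another line alone, so the count does not describe all members. Pcdhb14 lay at 4.38 and 4.12 CPM in C1 cells in ethanol and 4.64 and 3.63 CPM in dexamethasone, against 8.97 and 8.12 CPM and 7.54 and 7.98 CPM in wild-type NIPBL cells (log2 difference -0.95 ± 0.0944, SE, edgeR adjusted p = 3.49e-07). Pcdhb22 had 0.863 ± 0.0855 and 0.723 ± 0.183 CPM in C1 cells and 3.32 ± 0.1 and 2.75 ± 0.635 CPM in wild-type NIPBL cells (ethanol and dexamethasone, SD, n = 2 each, edgeR adjusted p = 3.83e-05). The counts of Pcdhb22 and Pcdhb21 overlap on 1 strand.

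Those of the γ cluster that fell include Pcdhgb7 (2.73-fold, 0.867 to 1.08 CPM in C1 cells against 2.39 to 2.68 CPM in wild-type NIPBL cells) and Pcdhgb6 (4.98-fold). The γ genes share their last exons in overlapping models, so values of single γ members are uncertain. Summed over the 22 β protocadherin genes of the table, C1 libraries held 9.27 to 12.5 CPM, with 5.21 to 7.9 CPM in C2, 9.54 to 13 CPM in C1-C2, 4.68 to 5.65 CPM in empty-vector cells with IPTG and 9.79 to 12.6 CPM in those without IPTG, and wild-type NIPBL libraries held 19.5 to 24.6 CPM. The C1 sums thus lay above those of empty-vector cells with IPTG and of C2 cells without overlap, and below those of wild-type NIPBL cells. They overlapped the sums of C1-C2 cells and of empty-vector cells without IPTG, and wild-type NIPBL cells lay above every other line. Against C2, 3 protocadherins were higher in C1 and 0 lower, and against C1-C2 0 were higher and 1 was lower. Over all tested genes 0.732% were higher and 0.531% lower against C2, and 0.301% and 0.407% against C1-C2. DESeq2 called 8 of the 34 lower than in wild-type NIPBL cells, with members that it gave no adjusted p counted as not called. With each library left out in turn the edgeR median of the 34 ran from -1.29 to -0.97.

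**Figure D3:**
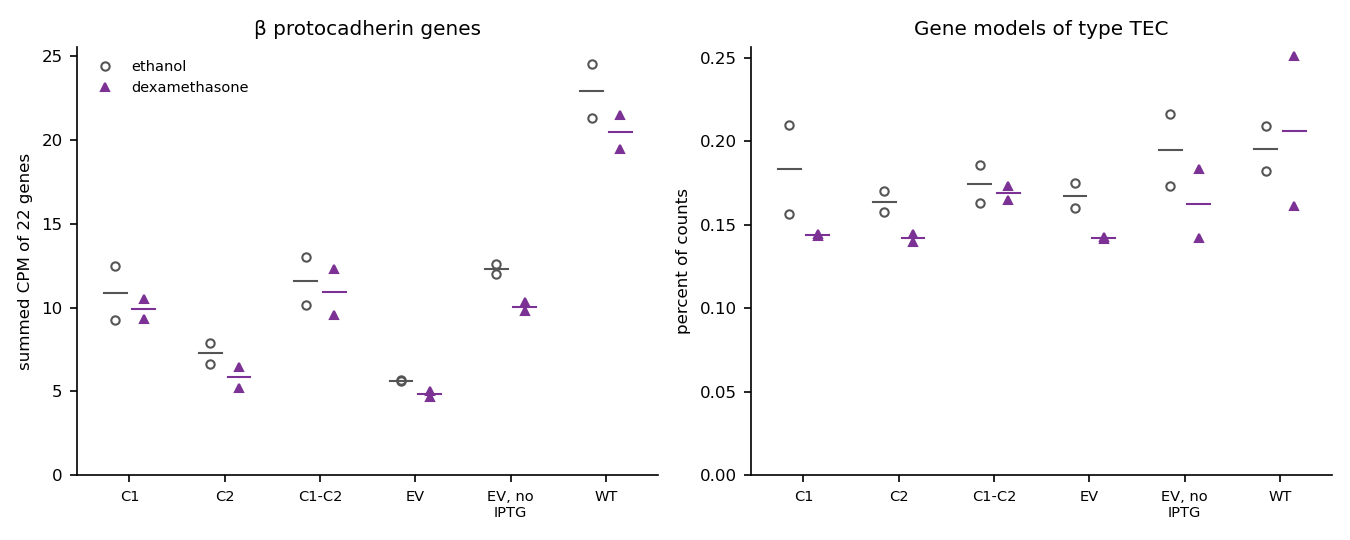
Left, summed CPM of 22 β protocadherin genes in each library, with open circles for ethanol, filled triangles for dexamethasone and a bar for the mean of 2 libraries. Right, the percent of counts on 1123 gene models of the class TEC in the same libraries. The C1 sums of 9.27 to 12.5 CPM lie below the wild-type sums of 19.5 to 24.6 CPM, and replicate 1 of wild-type NIPBL in dexamethasone has the highest TEC share, 0.251%.

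Matrix and adhesion genes moved in both directions. Of 18 measured matrix and mesenchymal genes, 5 (27.8%) fell and 2 (11.1%) rose (median log2 difference -0.13), beside 4.41% and 5.24% over all tested genes. Without replicate 2 of C1 in ethanol 2 fell and 1 rose, 3 fell without replicate 1 of C1 in either treatment, without replicate 2 of C1 in dexamethasone and with wild-type NIPBL replicate 1 in ethanol left out, and the median ran from -0.13 to -0.075 over the 8 fits that leave out a library. The collagen gene Col5a1 had 91.7 to 111 CPM in C1 cells against 127 to 146 CPM in wild-type NIPBL cells (log2 difference -0.44, edgeR adjusted p = 1.46e-06), and Col6a1 and the matrix glycoprotein gene Thbs1 differed by -0.50 and -0.62. Vim rose by 0.32 (edgeR adjusted p = 7.82e-06), with 4082 to 4458 CPM in C1 cells against 3328 to 3608 CPM in wild-type NIPBL cells. Of 15 cadherins outside the protocadherin clusters 3 rose and 0 fell (median 0.10), namely Cdh17, Cdh13 (0.23) and Cdh2 (0.13). Of 7 measured epithelial genes Cdh17, Grhl2 and Esrp1 rose and the keratin gene Krt7 fell (median 0.61), with Grhl2, Esrp1 and Krt7 at mean levels under 1 CPM in C1 and wild-type NIPBL cells. Of 14 matrix proteases and their inhibitors, Timp1 and Plaur rose, by 0.20 and 0.21, and 0 fell (median 0.078), with both calls lost in 4 of the 8 fits that leave out a library.

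Cohesin genes did not follow 1 direction. Among 15 cohesin subunits and regulators 2 (13.3%) rose, 0 fell and the median was 0.0011, beside 5.24% higher over all tested genes. DESeq2 called 2 higher and 1 lower, and with each library left out 1 to 3 were higher and 0 to 1 lower. Stag1, a subunit of the cohesin ring, had 216 ± 6.78 and 183 ± 3.71 CPM in C1 cells and 162 ± 0.0935 and 140 ± 0.174 CPM in wild-type NIPBL cells (ethanol and dexamethasone, SD, n = 2 each, log2 difference 0.40, edgeR adjusted p = 7.66e-08). At Stag1 the log2 difference of C1 from empty-vector cells with IPTG was -0.021 and did not pass (edgeR adjusted p = 0.845). The boundary factor gene Ctcf rose by 0.12 (edgeR adjusted p = 0.0412), a call lost with any of 6 libraries left out. Mau2 had 56.1 to 61.6 CPM in C1 cells against 59.9 to 71.8 CPM in wild-type NIPBL cells and did not pass (log2 difference -0.087, edgeR adjusted p = 0.192), although it did without replicate 2 of wild-type NIPBL in dexamethasone (-0.13, edgeR adjusted p = 0.0363).

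Of the next 5 lists, on stress and signalling, 21.1% to 37.5% of the measured members were called, beside 9.66% over all tested genes, which is 3 to 6 genes a list. Of 20 genes of the ATF4 and unfolded protein response 5 rose and 0 fell (median 0.11), led by the pseudokinase gene Trib3 (0.48, edgeR adjusted p = 0.0107), with 0 to 8 called when a library was left out and 0 without replicate 2 of C1 in ethanol. Of 11 TGF-beta and BMP targets 3 rose and 0 fell (median 0.090): Pmepa1, a TGF-beta feedback gene, with 3.52 to 4.71 CPM in C1 cells against 2.13 to 3.04 CPM in wild-type NIPBL cells, and the inhibitors of differentiation Id2 and Id3. Of 18 immediate early genes the AP-1 gene Fosl2 (-0.36), Egr2 (-1.11) and Ier2 (-0.33) fell and Klf6 rose (0.28), with a median of -0.043. Of 16 hypoxia and glycolysis genes 4 rose and 2 fell (median 0.0048), the glucose transporter gene Slc2a1 (0.20) among those that rose and Egln3 (-0.44) among those that fell. Of 19 p53 targets Mdm2 (0.22) and Perp (0.18) rose and the antiproliferative Btg2 (-0.91) and Plk2 (-0.27) fell (median -0.047). Of 24 cell cycle and replication genes the mitotic genes Plk1 (0.17) and Ccnb1 (0.17) and the licensing gene Cdt1 (0.20) rose (12.5% of the list, median 0.060), and 0 were called without replicate 2 of C1 in either treatment.

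Other lists had at most 2 calls. Of 24 interferon-stimulated genes Oas3 fell (-0.63, edgeR adjusted p = 0.0325) with a median of -0.12, and its call was lost in 6 of the 8 fits that leave out a library. Without replicate 1 of wild-type NIPBL in dexamethasone 3 of the list fell and the median was -0.25, and without its replicate 2 the median was -0.040. Of 24 sterol and fatty acid genes Scd1 fell (-0.34) and 23 had a negative difference (median -0.075), and the call was lost in 7 of the 8 fits. Of 15 clock genes Bhlhe40 rose (0.26) and Per3 fell (-0.26), with a median of 0.0099, and of 7 Wnt genes Sfrp2 fell (-0.27), with a median of -0.029. With both treatments averaged, edgeR called 0 of 24 replication-dependent histone genes (median 0.0030), 27 Hox genes (-0.049), 9 Notch genes (0.034), 30 ribosomal protein genes (-0.024), 15 mitochondrially encoded genes (-0.14) and the 1 measured vessel marker (-0.30). DESeq2 called 0 in these lists too, but with a library left out edgeR called up to 1 histone, Hox, Notch, ribosomal protein and mitochondrial gene each, and in dexamethasone alone 1 Notch gene was lower. At an unadjusted p under 0.05 edgeR counted 3 Notch genes, 1 histone, 1 Hox and 1 ribosomal protein gene and 0 of the other lists. Of 3 measured blood cell markers Cd68 rose (0.27) and Lyz2 fell (-0.89), and the 9 marker genes in the table summed to 26.2 to 27.1 CPM in C1 cells and 26.7 to 29.9 CPM in wild-type NIPBL cells. Among the named genes of these lists, the call of the ATF4 target Slc3a2 was lost in 7 of the 8 fits that leave out a library and that of Mthfd2 in 6, those of Asns, Cd68, Perp, Ccnb1 and Cdt1 in 4, those of Per3, Lif and Cdh2 in 3, those of Trib3, Plk1 and Grhl2 in 2, and those of Thbs1, Krt7, Esrp1, Ier2 and Sfrp2 in 1.

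**Figure D4:**
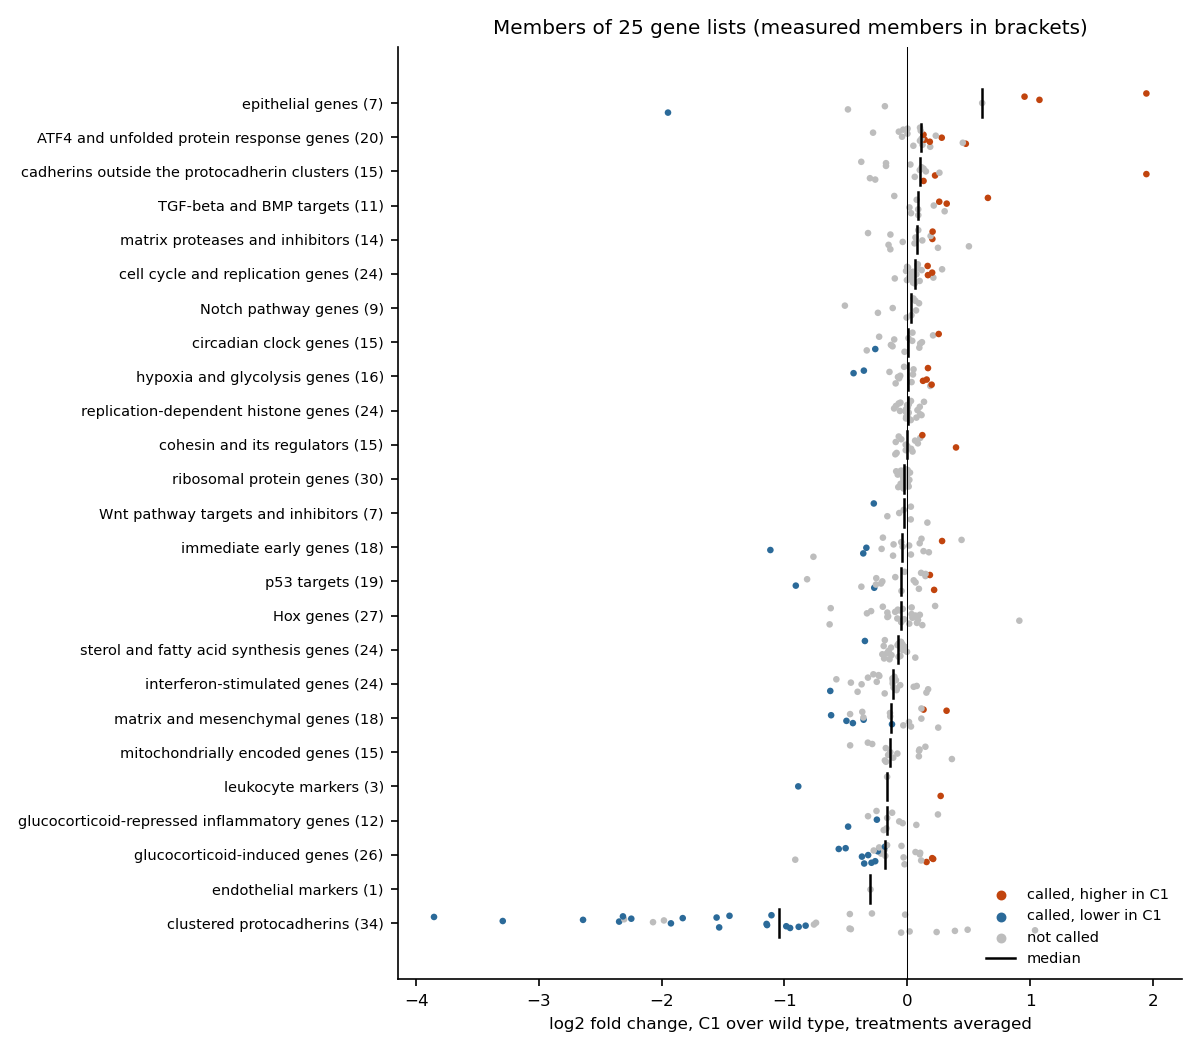
Log2 fold change of C1 over wild-type NIPBL cells, treatments averaged, for the measured members of 25 gene lists, ordered by median (black bar). Points are coloured where the gene passed the test, and the clustered protocadherins have the lowest median, -1.05.

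The knockdown in empty-vector cells, which uses neither C1 nor wild-type NIPBL libraries, gave lists of genes that were lower or higher with the hairpin induced. Between empty-vector cells with and without IPTG 4753 genes (28.1%) passed, 2435 higher (14.4%) and 2318 lower (13.7%). Of the 2318 knockdown-lowered genes, 385 (16.6%) were lower in C1 than in wild-type NIPBL cells and 53 (2.29%) higher, with a median log2 difference of -0.047. Of the 2435 knockdown-raised genes, 463 (19%) were higher and 35 (1.44%) lower, with a median of 0.069. Over all tested genes 5.24% were higher and 4.41% lower. Seen from the C1 calls, 52.1% of the 888 higher genes were knockdown-raised, and 51.5% of the 747 lower genes knockdown-lowered, while 41.9% and 43.8% were not called after knockdown.

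The differences were larger where the knockdown was at least 2-fold. Of the 172 such lowered genes 49 were lower in C1 and 0 higher (median -0.60), and of the 257 such raised genes 49 were higher and 3 lower (median 0.25). Of the 172, 54 were TEC gene models, whose share of counts was highest in replicate 1 of wild-type NIPBL in dexamethasone, so the 79 protein-coding ones are given apart: 44 were lower in C1 and 0 higher, with a median of -0.81 in ethanol and -0.71 in dexamethasone. Their median level, centred per gene on the 8 libraries, was -0.51 to -0.35 in the C1 libraries and 0.29 to 0.48 in the wild-type NIPBL libraries, with no overlap. For the 180 protein-coding raised genes it was 0.057 to 0.33 in C1 libraries and -0.24 to -0.036 in wild-type NIPBL libraries. The 79 lowered genes include clustered protocadherins, already described above. Of 34 measured members of that family, 25 were lowered by knockdown, with a median log2 difference of -1.90 over the 34. Their share of the 79 and of the 44 was not counted. Without replicate 1 of wild-type NIPBL in dexamethasone 309 knockdown-lowered genes were lower and 334 knockdown-raised genes higher in C1. Those counts were 219 and 268 without replicate 2 of C1 in ethanol and 253 and 297 without replicate 2 of C1 in dexamethasone, and 248 knockdown-lowered genes were lower with wild-type NIPBL replicate 2 in ethanol left out. An effect of IPTG or of the hairpin itself cannot be told apart from the loss of NIPBL in these lists.

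**Figure D5:**
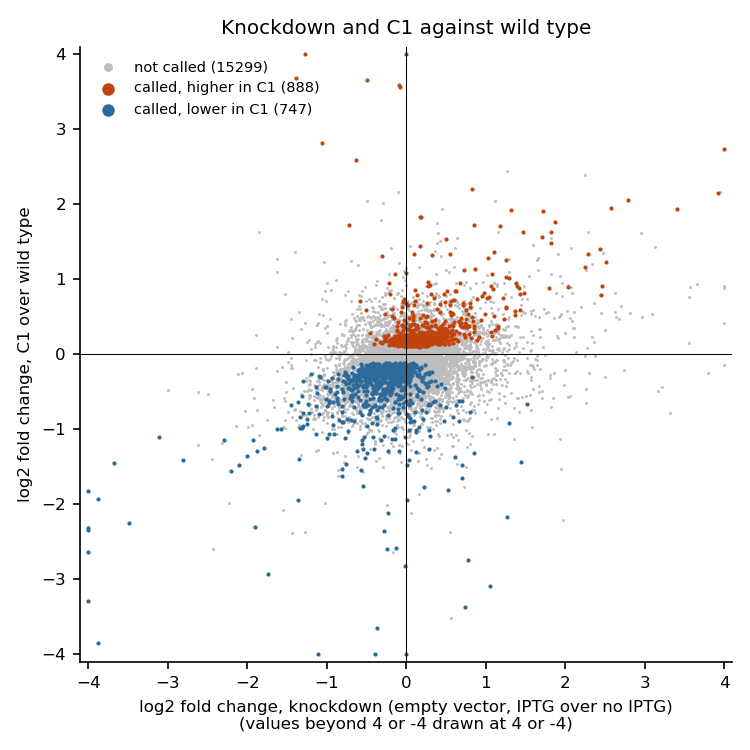
Log2 fold change after knockdown in empty-vector cells (x, IPTG over no IPTG) and of C1 over wild-type NIPBL cells (y, treatments averaged), with a point per tested gene, drawn at the edge beyond 4 or -4. The 747 genes called lower in C1 lie mostly left of 0 and the 888 called higher mostly right of it.

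C1 differed from wild-type NIPBL cells at more genes than from the other mutant lines. Against C2 214 genes (1.26%) passed, 124 higher (0.732%) and 90 lower (0.531%) in C1, and against C1-C2 120 (0.709%), 51 higher (0.301%) and 69 lower (0.407%), or 74 without replicate 2 of C1-C2 in ethanol, whose labels disagree. With a library of either group left out in turn the first count was 137 to 186, with the lowest without replicate 2 of C1 in dexamethasone, and the second 66 to 80. The tests of C1, C2 and C1-C2 against wild-type NIPBL share the wild-type NIPBL libraries and gave 1635, 2177 (12.9%) and 823 (4.86%) calls. Over the 172 genes lowered at least 2-fold by knockdown, the medians were -0.60 for C1, -0.68 for C2 and -0.48 for C1-C2, each minus wild-type NIPBL. These genes include TEC gene models, and each median uses replicate 1 of wild-type NIPBL in dexamethasone. That library's median centred level over the list was 0.63, against 0.033 in replicate 2. Medians of the protein-coding genes alone are given only for C1. Whether the counts of calls differ between mutants was not tested.

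At 39 genes C1 passed the test against wild-type NIPBL, C2, C1-C2 and empty-vector cells with IPTG in 1 direction, 20 higher and 19 lower, in tests that share the C1 libraries. C1 against empty-vector cells gave 243 calls (1.43%). Among the higher ones, Lgals3, the sugar-binding galectin-3, had 2085 to 2296 CPM in C1 cells, 1401 to 1971 CPM in the 16 libraries of the remaining lines and 1475 to 1698 CPM in wild-type NIPBL cells. Usp14, a deubiquitinase of the proteasome, had 129 to 159 CPM in C1 cells, 92.8 to 123 CPM in the remaining lines and 102 to 120 CPM in wild-type NIPBL cells. Among the lower ones, Ucp2, a mitochondrial carrier, had 5.67 to 7.38 CPM in C1 cells, 8.06 to 15 CPM in the remaining lines and 10.4 to 12.5 CPM in wild-type NIPBL cells. Dysf, which encodes the membrane repair protein dysferlin, had 2.95 to 3.3 CPM in C1 cells, 4.08 to 7.29 CPM in the remaining lines and 5.16 to 6.61 CPM in wild-type NIPBL cells. For these 4 genes no other library reached the C1 range. Csn3, Ldhb, Fcho1 and Rex2 belong to the same 39, and the genes of this paragraph were picked from them after their values were seen.

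By gene type, 12.1% of 12163 protein-coding genes were called, 863 higher and 614 lower in C1, beside 9.66% over all tested genes. Of 1123 TEC gene models 64 (5.7%) were lower and 0 higher, beside 4.41% lower and 5.24% higher over all tested genes. Their median log2 difference was -0.32, with -0.13 in ethanol and -0.52 in dexamethasone. Without replicate 1 of wild-type NIPBL in dexamethasone 10 TEC models were lower and 3 higher, and the median was -0.13. Without replicate 2 of C1 in ethanol 6 were lower, 17 with wild-type NIPBL replicate 1 in ethanol left out, without replicate 2 of C1 in dexamethasone 18, without its replicate 1 30, without replicate 1 of C1 in ethanol 121 and without replicate 2 of wild-type NIPBL in dexamethasone 238. Of 637 lincRNA genes 27 were lower and 10 higher (median -0.11), 5.81% in both directions, which is under the 9.66% over all tested genes. The part of that library's TEC share in the calls of other genes was not tested.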

How the data were processed

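Total RNA of 24 libraries was made with a ribosomal RNA depletion kit and sequenced. The deposited values are raw counts per gene, which the authors made with bcl2fastq 2.20, cutadapt 1.18, STAR 2.7.0f, featureCounts and Subread 2.0.3 on mm10, per the submitters' processing notes. The annotation release, the strand setting and the handling of reads with several positions are not given in the sources used here, and without strand, reads from overlapping genes cannot be told apart.

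Counts of all 24 libraries entered 1 edgeR 4.0.16 model (R 4.3.3) with a mean for each of 12 groups of 2 replicates, TMM factors and 12 residual degrees of freedom. The filterByExpr function kept 16934 of 55341 genes. Contrasts of C1 minus wild-type NIPBL were averaged over the treatments, tested with the quasi-likelihood test, adjusted by Benjamini-Hochberg over all tested genes and called at an adjusted p under 0.05. CPM uses TMM library sizes. The fit was tested on simulated data, drawn without shared replicate effects or an outlying library, so that test does not cover either. DESeq2 1.42.0, other filters, scalings and library sets were alternatives. Genes that DESeq2 gave no adjusted p count as not called in its counts. The p-values measure the spread between the 2 libraries of a group, estimated jointly over all 12 groups. That spread thus does not come from the C1 and wild-type NIPBL libraries alone. Groups follow the titles. For replicate 2 of C1-C2 in ethanol the treatment label says dexamethasone.

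Named genes are up to 15 higher and 15 lower of largest fold at a mean of at least 1 CPM with replicates apart in both treatments, leaving out gene models without a given name, and up to 4 called members by smallest p of each of 25 lists, with the genes of smallest p in the difference between treatments. Fkbp5, Sgk1, Suox and the split by gene type were added after their values were seen. The libraries compared and the lists were chosen with earlier results of these data known. Gene types, lengths and positions come from GENCODE on mm10.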

Additional observations from a re-analysis of the deposited data

Results flagged for a closer look

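Socs2 and Nrip1 were singled out because the difference between C1 and wild-type NIPBL cells was not the same in dexamethasone and in ethanol by a test of that difference. For Socs2 it was -0.82 on the log2 scale (-0.57 in dexamethasone and 0.25 in ethanol, edgeR adjusted p = 0.0275), and over the alternatives it ran from -0.94 to -0.69 with adjusted p values of 4.11e-09 to 0.856. For Nrip1 it was -0.44 (-0.37 in dexamethasone and 0.072 in ethanol, edgeR adjusted p = 0.0275), and over the alternatives it ran from -0.48 to -0.39 with adjusted p values of 0.00388 to 0.856. Both C1 libraries were below both wild-type NIPBL libraries in dexamethasone for each gene.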

How the results depend on the processing

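The count with both treatments averaged was 1635, 1054 when only the 8 C1 and wild-type NIPBL libraries were fitted, 1666 with DESeq2, and 787 to 2032 with each library left out. DESeq2 called 1449 of the 1635, with genes that it gave no adjusted p counted as not called. In ethanol the 338 calls became 515 with no filter on low counts, 219 with the 8 libraries only and 77 to 368 with a library left out. In dexamethasone the 902 became 1399, 416 and 214 to 1319 under the same settings. The 2 genes that differed between treatments became 22 with no filter, 0 with the 8 libraries only, 0 with a length and GC trend removed, 5 with DESeq2 and 0 to 2 with a library left out. Against C2 the 214 became 326 with no filter and 137 to 186 with a library left out. Against C1-C2 the 120 became 207 with no filter, 74 without the library whose labels disagree and 66 to 80 with a library left out. The cause of these shifts was not tested.

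The labels do not tie the replicate numbers to a shared culture or day. Same-numbered libraries deviated together (correlation over 0.1) in 11 of 15 pairs of groups in ethanol, with 0.34 for C1 with wild-type NIPBL, and in 9 of 15 in dexamethasone, with 0.029 for that pair. Shared replicate effects are thus a possibility, but since not every pair passed 0.1 the block was kept as an alternative. With the replicate block the counts were 2350 with treatments averaged, 575 in ethanol, 1573 in dexamethasone, 7 for the difference between treatments and 325 against C2.

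Over genes of at least 2-fold knockdown the medians of C1 minus wild-type NIPBL were -0.60 and 0.25. Over the full knockdown-lowered and knockdown-raised lists, to which the medians and lists' counts in the next sentence belong, they were -0.047 and 0.069. With a library left out, the knockdown count was 3498 to 4309, the medians -0.066 to -0.029 and 0.057 to 0.092, and the lists' counts 219 to 487 lower and 268 to 515 higher. The log2 difference of Nipbl ranged from -0.19 to 0.0027 with a library left out. Of 1501 values of named genes under an alternative, 112 fell short of the threshold. Low counts limit the genes under 0.859 CPM.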
